A study of Mus musculus with 12 samples.

Results

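To evaluate how gene expression in cerebellar astrocytes differed between the earlier and the later postnatal weeks, the 6 libraries of P1 and P7, called the early phase here, were set against the 6 libraries of P14 and P28, called the late phase. All 12 libraries were made from cells that were sorted for GFP out of cerebella of mice carrying the Aldh1l1-GFP transgene on a C57/BL6J background, with 3 libraries per age and no further treatment or mutation. GFP is driven in this line by the promoter of Aldh1l1, a folate enzyme gene of astrocytes, so the gate took any cell in which that promoter was active. The labels number the 3 libraries of an age as replicates without saying whether they came from separate animals, and p-values then measure the spread between these libraries only. The study's methods name more than one sequencing instrument without saying which libraries ran on which, so a batch by instrument could not be checked and its part in the difference between the phases was not tested. Of 24421 genes in the table, the 15464 that reached a normalized count of 10 in 3 libraries or more were compared. For 1135 of these all 6 late values lay above all 6 early values, which is 7.34% of the genes compared, and for 1276, or 8.25%, they all lay below. Those 2411 genes, 15.6% of the genes compared, are described here. They were chosen by these very values, so the separation itself is a description and not a finding.

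Astrocytes of the cerebellum arise around birth from dividing progenitors, and the Bergmann glia, whose fibers span the molecular layer, are their best known form. As the circuit matures these cells stop dividing, take up glutamate and potassium released by neurons, couple through gap junctions and supply neurons with metabolites. In the same weeks the granule neuron precursors of the external layer multiply and become granule neurons, and oligodendrocytes begin to form myelin.

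Reads on genes numbered between 6399499 and 14733985 per early library (median 11403751.5) and between 7965152 and 10269334 per late library (median 9522207.5). The early libraries held 17464 to 18051 genes with a read and the late ones 14249 to 16642. In the late phase the genes that lay above took 32.6% to 36.2% of all normalized counts of a library, against 11.8% to 14.7% early, while the genes that lay below took 4.55% to 6.13% late against 13.4% to 16.9% early. The direction of both changes largely follows from how the genes were chosen. Xist, the RNA of the inactive X chromosome, was over 1000 in 2 early and 4 late libraries, and the Y-linked Ddx3y was over 100 in the other 4 early and 2 late libraries, so sex differed in balance between the phases. The balance also differed by age. All 3 P1 libraries were low for Xist (14.4 to 28.9) and high for Ddx3y (624 to 837). All 3 P14 libraries were high for Xist (18254 to 22155) and low for Ddx3y (0 to 1.06). P7 and P28 were mixed. Sex and age therefore cannot be told apart at P1 and P14, and the part of sex in any step between ages was not tested. Neither Xist nor Ddx3y was called different by the test used (limma, below), but edgeR called both, and leaving out P28 replicate 1 did so too. Rn45s, the precursor of ribosomal RNA, was between 174264 and 271728 early (median 188553) and between 234256 and 476114 late (median 355747), a call (0.80, adjusted p = 0.00051) that library totals alone ended at 0.45. The call was also lost without P1 replicate 3 or P14 replicate 3 (lowest difference with 1 library left out 0.73) and in a fit of 2 phases without time points (adjusted p = 0.092). In pools of sorted cells, a smaller share of a cell type and less of an RNA per cell cannot be told apart.

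Aldh1l1 itself ranged from 936 to 6441 in the early libraries (median 2913) and from 1824 to 3338 in the late ones (median 2214). The phases overlapped and did not differ by the test (log2 difference -0.17, SE 0.17, adjusted p = 0.47). Inside the early phase Aldh1l1 fell, from a mean of 5008 at P1 to 1470 at P7 (-1.80, adjusted p = 0.00047 in the same limma fit). Its means were 1879 at P14 and 2921 at P28. Gfap, the astrocyte intermediate filament, was between 360 and 1773 early (median 981) and between 1078 and 3400 late (median 1797). It was higher late by 1.01 on the log2 scale (SE 0.21, adjusted p = 0.0017) with overlapping libraries, and scaling by library totals alone lowered the difference to 0.66 and ended the call. Both astrocyte markers were present in every library.

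The test used for values like these was limma on log2(normalized count + 1), with a mean for each time point, and a gene was called at a Benjamini-Hochberg adjusted p under 0.05 and a log2 difference past 0.75. Fold changes are on this log2 scale, which understates changes of low genes. It called 2121 genes higher late (13.7% of the genes compared) and 2861 lower late (18.5%). At an unadjusted p under 0.05, with no bound on size, 3204 genes were higher and 4341 lower. Of the genes whose late values all lay above, 1045 (92.1%) were also called, and of those whose late values all lay below, 1132 (88.7%). The test and the choice of these genes used the same values, so these shares are no independent support for the sets. The 90 and 144 genes that separated without a call did not meet the adjusted p or the fold bound. Conversely, 1076 genes called higher and 1729 called lower had at least 1 library in the range of the other phase. The median log2 difference was 1.63 in the genes above, -1.99 in those below and -0.19 over all genes compared.

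**Figure D1:**
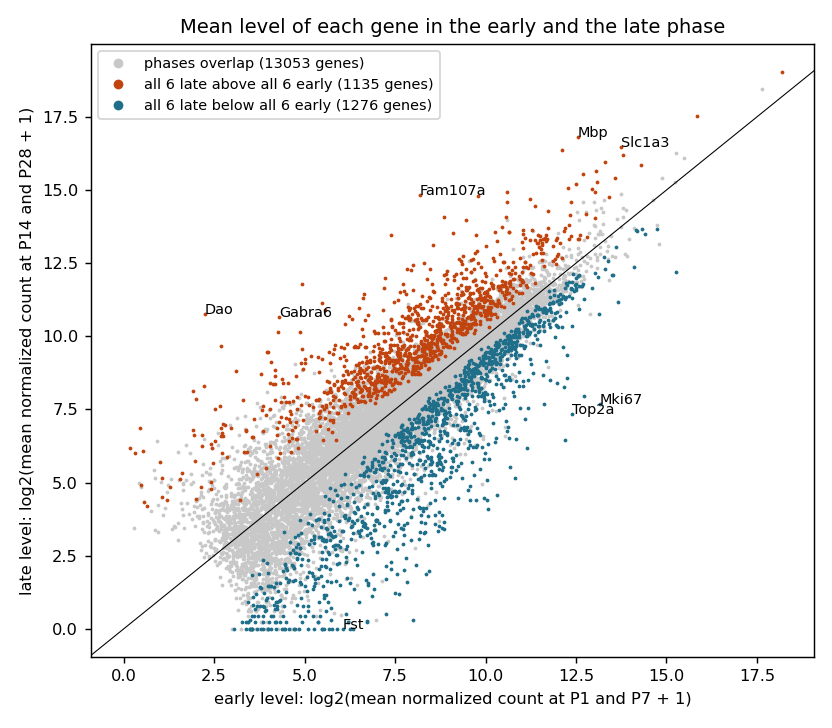
Mean level of each of the 15464 genes in the early phase (x axis) and the late phase (y axis), both as log2 of the mean normalized count + 1, with the diagonal drawn as a line. Genes whose 6 late values all lie above (1135, red) or below (1276, blue) all 6 early values lie off the diagonal. The 33 genes of the lower set with no late read form part of the row at 0.

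The distance between the phases was mostly small. The gap between the nearest early and late library had a median of 0.43 on the log2 scale in the genes above and 0.38 in those below. It passed 1, 2 and 3 in 252, 69 and 17 genes above and in 287, 91 and 27 genes below. Just inside the rule stood Gabarapl2, an autophagy gene, with a highest early value and a lowest late value that both round to 128, and Iqcb1, a ciliary gene, where the lowest early and the highest late value both round to 172. Just outside stood Tmem110, with 86.7 on both sides of the boundary, and Atoh1, a transcription factor of granule neuron precursors. Atoh1 had no read in any late library but also none in 1 early library.

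The genes with the largest differences among those that rose belonged to several cell types. Dao (D-amino acid oxidase, chr5:113999635-114025675 on GRCm38), a peroxisomal enzyme of Bergmann glia that breaks down D-serine, was between 0.615 and 7.75 in the early libraries (median 3.42) and between 479 and 3206 in the late ones (median 1560). The nearest early and late libraries were 54.8-fold apart on the scale of the value + 1, and the log2 difference was 8.28 (SE 0.40, adjusted p = 1.7e-09). Fam107a (chr14:8296270-8317607), an actin-associated protein abundant in astrocytes, was between 178 and 405 early (median 294) and between 21189 and 38887 late (median 27228). The phases stood far apart and each phase was tight, with a log2 difference of 6.68 (SE 0.18, adjusted p = 7.7e-12). Gpd1 (chr15:99717587-99725014), the glycerol-3-phosphate dehydrogenase of the cytosol, was between 87.2 and 262 early (median 171) and between 4364 and 19085 late (median 10452). It was higher by 5.93 (SE 0.18, adjusted p = 2.2e-11), and its P28 mean of 16646 was also well above its P14 mean of 5781. Etnppl (chr3:130617448-130635750), which degrades phosphoethanolamine, went from a median of 1.73 (0 to 15.1) to a median of 841 (480 to 1077). Its late values were alike at both ages, with means of 850 at P14 and 779 at P28.

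Cbln3, a cerebellin made by granule neurons, was between 14.2 and 49.4 early (median 25.7) and between 2622 and 6357 late (median 3096). Its gap of 5.70 on the log2 scale was as wide as that of Fam107a. Gabra6, the GABA receptor subunit that marks mature granule neurons, was at 0 in all 3 P1 libraries, reached 51 at most at P7 and was between 800 and 3285 late (median 1222). Gabrd, its partner subunit, and Slc17a7, the vesicular glutamate transporter of granule neurons, rose by 6.52 and 6.08. Klk6 and Ermn, a protease and a cytoskeletal protein of oligodendrocytes, rose by 6.21 and 5.95. Extl1, a glycosyltransferase of the exostosin family, rose by 6.04 with late values from 156 to 1392.

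The largest falls were mostly of genes used by dividing cells. Top2a, the topoisomerase that untangles replicated chromosomes, was between 2733 and 8052 in the early libraries (median 5258) and between 4.06 and 402 in the late ones (median 125). No late library came near an early one, and the log2 difference was -6.83 (SE 0.18, adjusted p = 7.7e-12). Mki67 (chr7:135689784-135716450), the coat protein of mitotic chromosomes, was between 3951 and 13819 early (median 9105) and between 9.44 and 579 late (median 164). It fell by 6.67 on the log2 scale (SE 0.27, adjusted p = 4.1e-10), with means of 394 at P14 and 19.7 at P28. Birc5 (chr11:117849237-117855743), survivin of the chromosomal passenger complex, was between 124 and 317 early (median 218) and between 0 and 5.29 late (median 1.91). Kif2c, a kinesin that depolymerizes microtubules, Hmmr, a spindle protein, and Stil, needed for centriole duplication, differed by -6.89, -6.69 and -6.55. Ube2c, which marks mitotic cyclins for destruction, differed by -6.60. The repair enzymes Exo1 and Neil3 differed by -6.51 and -6.50, and each had late libraries without a read.

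Some of the widest falls were of genes outside the cell cycle. Scube2 (chr7:109798690-109865679), which helps to release Hedgehog ligands, was between 97.9 and 530 early (median 367) and between 0 and 8.47 late (median 2.32). Prdm13, a repressor that directs cerebellar progenitors to a GABAergic fate, was between 2.14 and 519 early (median 190) and had a read in 1 late library, at 1.46. Its lowest early value came from 1 P1 library, and the remaining early values started at 125. Tert, the catalytic subunit of telomerase, was between 18.6 and 51.2 early (median 44.4) and at most 1.09 late. It stands outside the naming rule and was chosen after its values were seen.

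Of the genes below, 33 had no read in any late library, while 0 of the genes above had none in all early libraries. The 33 passed the filter through their early values alone, and the share of such genes among all genes compared was not counted. Early libraries also had more reads (median 11403751.5 against 9522207.5) and more genes with a read. The part of depth in these counts was not tested. A library with no read of a gene can hold up to 3 reads of it, and folds against this floor are lower bounds that cover counting error only. Fst (chr13:114452262-114458989), the activin antagonist follistatin, was between 32.6 and 132 early (median 54.9), and its late level was at least 18.1-fold lower, with the floor taken per library. The bound was 20.9-fold for Magel2, an imprinted gene, 22.1-fold for Crabp1, a retinoic acid binding protein, and 14-fold for Mcidas, which switches on the formation of multiple cilia. All 4 genes were read in all 6 early libraries.

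**Figure D2:**
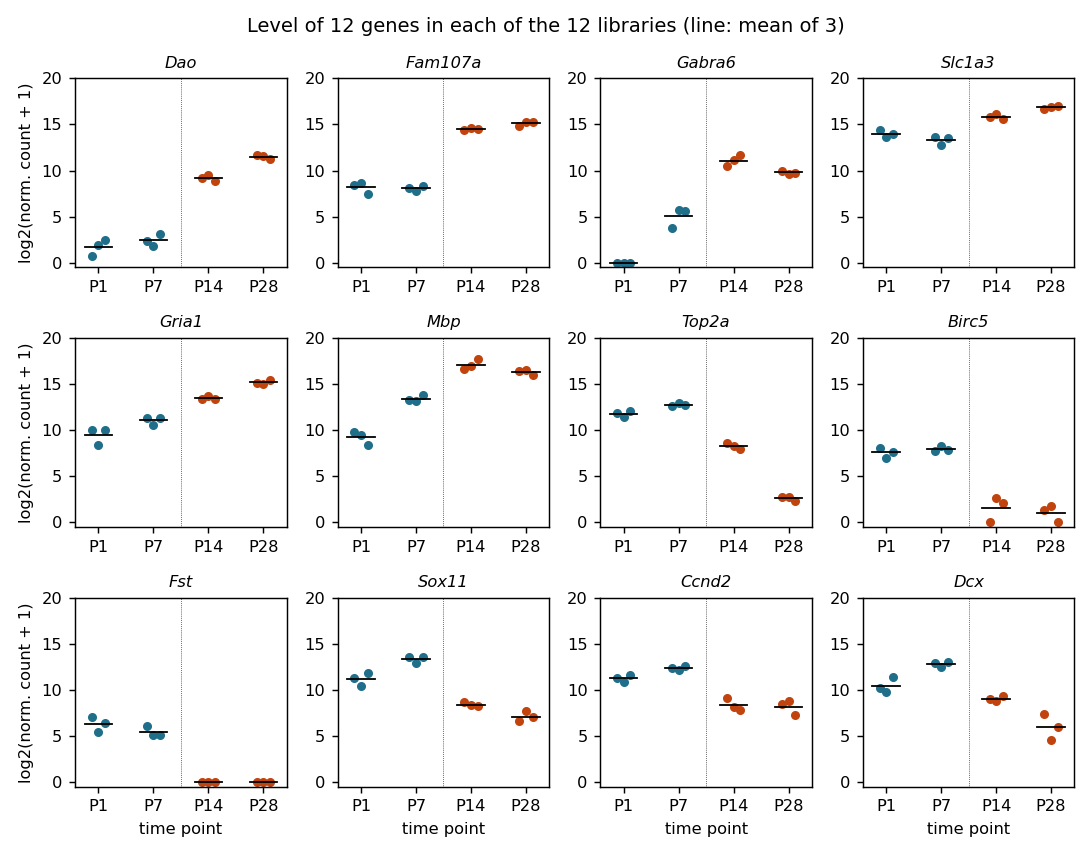
Level of 12 genes in each library, as log2(normalized count + 1), by time point (blue dots early, red dots late, short line the mean of 3 libraries). Dao, Fam107a, Gabra6, Slc1a3, Gria1 and Mbp lie higher in every late library and Top2a, Birc5, Fst, Sox11, Ccnd2 and Dcx lower, while Mbp and Gabra6 peak at P14 and Dao, Slc1a3 and Gria1 at P28.

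To evaluate which functions the separated genes hold, lists of astrocyte, cell cycle, synthesis and cell type genes were counted against the shares of all genes compared. Genes from these lists that are named below, beyond the 2 most abundant of each list, were chosen after their values were seen.

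Glutamate uptake and recycling had 10 members, of which 7 were called higher, 1 lower and 2 neither, and 6 lay above in all late libraries (median log2 difference 1.41). Slc1a3, the glutamate transporter GLAST of Bergmann glia, was between 6854 and 20875 early (median 12942) and between 50270 and 132264 late (median 89867). Slc1a2, the transporter GLT-1, was between 4844 and 14188 early (median 9895) and between 38590 and 93632 late (median 61734). The late values were higher in all libraries for both, by 2.71 (SE 0.17, adjusted p = 1.8e-08) and 2.63 (SE 0.15, adjusted p = 8.2e-09). Glul, glutamine synthetase, and Slc38a3, a glutamine transporter, rose by 1.67 and 1.26. Slc1a4, a carrier of neutral amino acids such as serine, was the member that fell, by 0.91 on the log2 scale.

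Of 16 genes for potassium, water and ion homeostasis, 15 were called higher, 0 lower, and 11 lay above throughout (median 2.09). Aqp4, the water channel of astrocyte endfeet, was between 7438 and 17558 early (median 10811) and between 20033 and 62819 late (median 44335), a difference of 1.75 (SE 0.17, adjusted p = 1.3e-06). Its phases were close, with a gap of 0.19. Kcnj10, the potassium channel Kir4.1, and the connexin genes Gja1 and Gjb6, which form astrocyte gap junctions, rose by 2.38, 1.99 and 3.05.

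Receptors of glial cells had 17 members, with 11 called higher, 2 lower and 8 above throughout (median 1.64). Gria1, an AMPA receptor subunit that Bergmann glia use to sense glutamate, was between 326 and 2625 early (median 1297) and between 10902 and 44628 late (median 23736). Gria4, the other AMPA subunit of these cells, was between 890 and 3759 early (median 2440) and between 13607 and 41444 late (median 25182). They rose by 4.07 (SE 0.25, adjusted p = 2e-08) and 3.52 (SE 0.16, adjusted p = 9e-10) with no overlap. Gpr37l1, an orphan receptor of glia, and Ntsr2, a neurotensin receptor of astrocytes, rose by 5.38 and 4.40. Grm5, the metabotropic glutamate receptor of young astrocytes, fell by 1.90 on the log2 scale with overlapping libraries. Ednrb, an endothelin receptor, was not called (0.58, adjusted p = 0.013) and overlapped.

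Among 11 tested Bergmann glia genes, 9 were called higher, 1 lower and 6 lay above throughout (median 2.76). Gdf10, a growth factor of the BMP family, was between 297 and 1687 early (median 1438) and between 9217 and 14328 late (median 12118). Hopx and Npy, a homeodomain protein and neuropeptide Y, rose by 3.34 and 4.91. Fabp7, a fatty acid binding protein of radial glia, was the member that fell (-1.39, SE 0.19, adjusted p = 3.9e-05) with overlapping libraries, and Ptprz1, a phosphatase of glia, did not differ (0.19, adjusted p = 0.41). S100b, a calcium binding protein of mature astrocytes, Aldh1a1, which makes retinoic acid, Hsd11b1, which activates corticosteroids, and Cd38, an NAD-consuming enzyme, are in no list and rose by 4.56, 4.23, 5.35 and 4.23. Like Tert, they stand outside the naming rule and were chosen after their values were seen. For S100b the early libraries were between 154 and 670 (median 320) and the late ones between 3999 and 15333 (median 8183).

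Transport and breakdown of GABA and glycine had 7 members, with 6 called higher and 2 above throughout. Slc6a11, the transporter GAT-3, was between 1716 and 21043 early (median 9299) and between 2347 and 12827 late (median 5519) and was not called (-0.45, adjusted p = 0.20). Scaling by library totals alone turned that into a call, at -0.80. Of 11 genes of serine and glycine metabolism, 3 were called higher and 1 lower, with a median of -0.05.

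**Figure D3:**
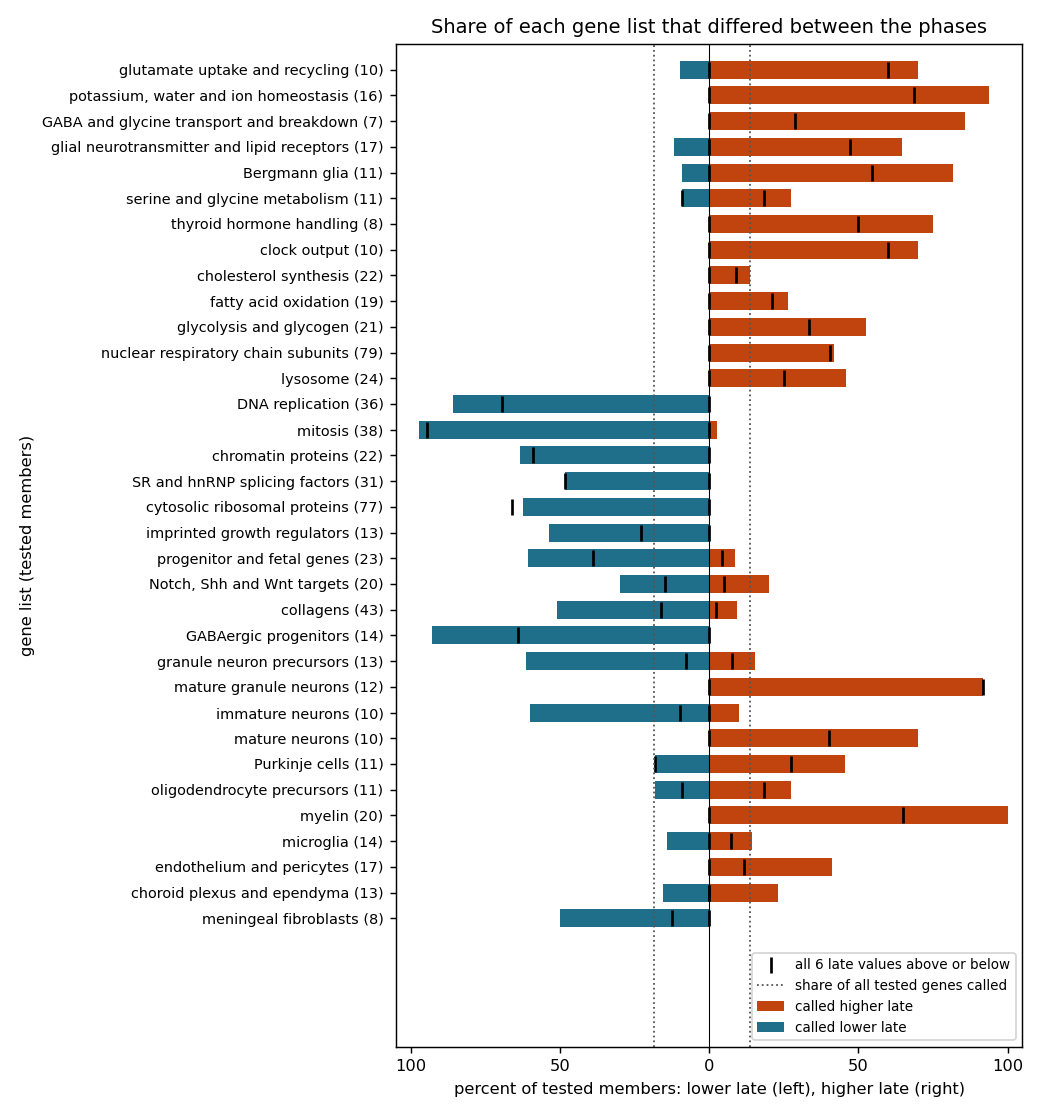
Percent of the tested members of each gene list that were called higher late (red bars, right) or lower late (blue bars, left), with black marks at the percent whose 6 late values all lay above or below. The dotted lines stand at the shares of all genes called, 13.7% and 18.5%. Ion homeostasis, mature granule neurons and myelin reach farthest right, and replication, mitosis and GABAergic progenitors farthest left.

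Hormone and clock genes separated the phases as well. Of 8 genes of thyroid hormone handling, 6 were called higher, 0 lower, and 4 lay above throughout (median 1.62). Dio2, the deiodinase with which astrocytes make active thyroid hormone, was between 36.9 and 387 early (median 164) and between 1447 and 3329 late (median 2138), a rise of 4.09 (SE 0.31, adjusted p = 1.6e-07). The receptor gene Thrb and the responsive genes Klf9 and Thrsp rose by 1.96, 1.27 and 3.45, while Thra, the other receptor gene, did not differ (0.02, adjusted p = 0.96). Of 10 clock output genes, 7 were called higher and 6 lay above throughout (median 1.34). Nr1d1, the clock repressor REV-ERBα, was between 375 and 661 early (median 447) and between 2155 and 5321 late (median 3022). Per3 and Dbp rose by 2.23 and 2.62. The hour of collection is not given in the sources used here, and the part of collection time was not tested.

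Genes of energy metabolism differed by smaller amounts. All 79 tested nuclear genes of the respiratory chain had a positive difference, 33 were called higher and 32 lay above throughout, with a median of 0.69. Cox6a1, a subunit of cytochrome oxidase, was between 2506 and 5395 early (median 4108) and between 7486 and 12897 late (median 10668). Of 21 genes of glycolysis and glycogen 11 were called higher and 7 lay above throughout (median 0.80), among them Aldoc, the aldolase of astrocytes, which rose by 2.97, and Pygm, a glycogen phosphorylase, which rose by 2.98. Gapdh and the ATP synthase gene Atp5b were called higher by 0.80 and 0.78 and lost the call with scaling by library totals alone, at 0.46 and 0.43. Both stood near the fold bound, and 1 library could end the call, for Gapdh P1 replicate 3, P7 replicate 2 or P28 replicate 2 (lowest difference 0.71) and for Atp5b P1 replicate 3 or P14 replicate 3 (lowest 0.71). For fatty acid oxidation 5 of 19 were called higher and 4 lay above throughout (median 0.42), and Acsbg1 and Acsl3, which activate fatty acids, rose by 3.18 and 2.12. Of 24 lysosome genes 11 were called higher and 6 lay above throughout. Cholesterol synthesis had 3 of 22 called higher, a share close to that of all genes, and its median of 0.21 turned to -0.14 with library totals alone.

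Genes of DNA replication fell together. Of 36, all had a negative difference, 31 were called lower and 25 lay below throughout (median -2.41), against 18.5% called lower and 8.25% below among all genes compared. The helicase genes Mcm2 and Mcm5 went from medians of 431 (269 to 576) and 251 (189 to 313) early to 29.9 (0 to 73.8) and 12.9 (0 to 60.8) late. Uhrf1, which carries DNA methylation through replication, differed by -5.13. Pcna, the sliding clamp of replication, was between 1419 and 2073 early (median 1855) and between 559 and 984 late (median 797), so that it fell by only 1.23 on the log2 scale (SE 0.15, adjusted p = 2.2e-05). Pcna and Mcm4, which fell by 1.49, moved less than the median of the list.

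Of 38 genes of mitosis, 37 were called lower and 36 lay below throughout, with a median of -4.92. The exception, called higher, was Anln, anillin, which acts in cytokinesis and is also found in myelin. It was between 272 and 1195 early (median 666) and between 559 and 3341 late (median 1626). The kinase Cdk1 was between 129 and 305 early (median 209) and between 0 and 11.9 late (median 0.529), and Foxm1, a transcription factor of the later cell cycle, differed by -5.67. The summed level of the mitosis genes was between 18036 and 50280 in the early libraries, between 4391 and 6433 at P14 and between 2055 and 2118 at P28. Much of the late sum came from Anln, which was highest at P14 (mean 2800, against 389 at P1, 992 at P7 and 901 at P28). Without it, a choice made after its values were seen, the sum was between 17764 and 49085 early, between 2206 and 3348 at P14 and between 841 and 1558 at P28. Of the 37 genes other than Anln, 17 were called lower again at P28 than at P14.

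Promoters are shown for the 3 replication or mitosis genes in the lower set with the most matches to motifs of cell cycle promoters. The windows run from 250 bases before to 50 bases after the start of transcription (RefSeq, GRCm38.p6), written 5′ to 3′ on the strand of the gene. They are Top2a at chr11:99024140-99024439 (minus strand), Ube2c at chr2:164769679-164769978 (plus strand) and Cdk1 at chr10:69352863-69353162 (minus strand). Capitals mark the motifs on either strand, which are CCAAT, bound by the factor NF-Y, CHR (TTTGAA), the cell cycle homology region through which the DREAM complex acts, and E2F sites (TTTCCCGC, TTTCGCGC, TTTGCCGC or TTTGGCGC). In Ube2c a pair of CCAAT matches on opposite strands overlaps and appears as a single run of capitals.
Top2a: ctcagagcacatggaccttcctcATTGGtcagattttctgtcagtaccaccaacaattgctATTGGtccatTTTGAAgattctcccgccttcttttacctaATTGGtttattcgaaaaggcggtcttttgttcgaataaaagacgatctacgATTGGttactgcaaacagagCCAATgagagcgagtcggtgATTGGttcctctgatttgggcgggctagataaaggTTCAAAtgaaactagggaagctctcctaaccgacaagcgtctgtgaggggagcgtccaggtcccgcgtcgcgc
Ube2c: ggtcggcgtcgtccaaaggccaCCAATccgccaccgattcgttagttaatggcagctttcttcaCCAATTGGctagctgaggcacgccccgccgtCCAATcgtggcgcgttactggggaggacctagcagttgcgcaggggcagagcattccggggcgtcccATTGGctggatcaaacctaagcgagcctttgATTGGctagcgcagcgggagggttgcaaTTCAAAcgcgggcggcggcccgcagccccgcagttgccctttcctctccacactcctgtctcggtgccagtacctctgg
Cdk1: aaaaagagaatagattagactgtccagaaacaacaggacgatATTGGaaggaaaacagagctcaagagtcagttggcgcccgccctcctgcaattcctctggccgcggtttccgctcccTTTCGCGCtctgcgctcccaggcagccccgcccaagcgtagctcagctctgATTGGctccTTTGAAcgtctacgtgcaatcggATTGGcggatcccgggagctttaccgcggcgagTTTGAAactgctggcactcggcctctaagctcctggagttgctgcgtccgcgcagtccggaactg

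Top2a held 6 CCAAT and 2 CHR matches, Ube2c 6 and 1, and Cdk1 3 CCAAT, 2 CHR and 1 E2F match. Of the 61 replication and mitosis genes in the lower set 51 had a promoter in the table, and 49% of these held CHR, 70.6% CCAAT and 21.6% an E2F site. Among the 11566 genes compared that had a promoter the shares were 11.9%, 38.3% and 3.83%, and among all 27025 RefSeq promoters listed 18.1%, 37.9% and 2.32%. For the whole lower set (951 promoters) they were 17.2%, 40.3% and 7.15%, and for the upper set (860 promoters) 9.07%, 37.4% and 2.21%. The NFI motif TTGGCA, linked to genes of astrocytes, was in 14.4% of the upper and 9.78% of the lower promoters against 11.6% of all compared. Among all 27025 RefSeq promoters listed its share was 14.4%, the same as in the upper set. The first 4 letters of this motif can overlap a reversed CCAAT. Of 35 promoters of astrocyte list genes in the upper set 4 held the NFI motif, and that of Slc1a3 did not. The window listed for Slc1a2 held none either, but at chr2:102706188-102706487 it lay inside the gene. Slc1a2 starts at 102658239 on the plus strand, so its outermost start was not searched. A match is a run of letters in these windows and not a measured site.

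**Figure D4:**
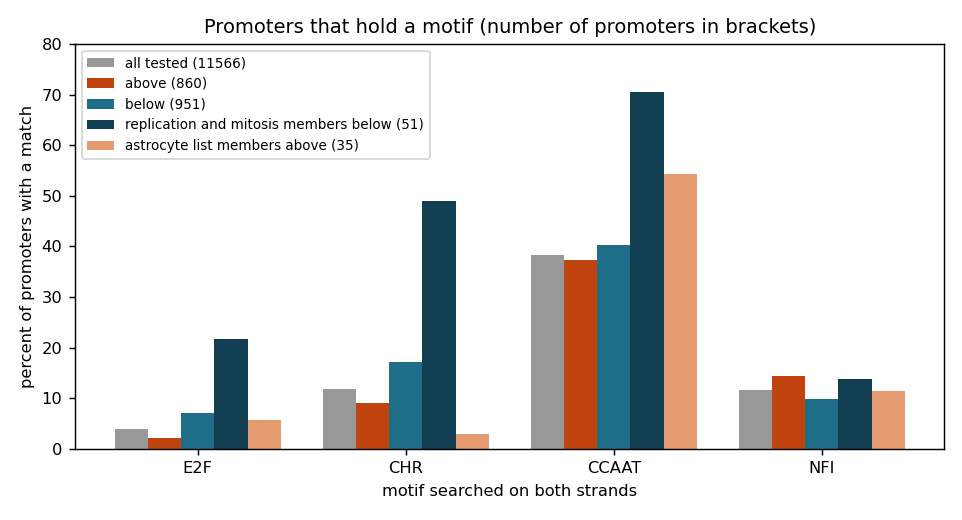
Percent of promoters (250 bases before to 50 after the start) that hold each motif on either strand, for all genes compared, the upper and lower sets, the replication and mitosis genes of the lower set and the astrocyte list genes of the upper set. The replication and mitosis genes stand highest for CHR (49%), CCAAT (70.6%) and E2F (21.6%), and for the NFI motif (TTGGCA) the 5 sets lie between 9.78% and 14.4%.

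Differences of chromatin, splicing and ribosome genes were smaller than those of mitosis. Of 22 tested chromatin proteins 14 were called lower, 0 higher, and 13 lay below throughout (median -1.18). Hmgb2, a chromatin protein of dividing cells, was between 2651 and 4255 early (median 3613) and between 158 and 610 late (median 346), a difference of -3.39 (SE 0.17, adjusted p = 2.4e-09). Lmnb1, lamin B1, Ezh2, the histone methyltransferase of Polycomb, and Dnmt1, the maintenance DNA methyltransferase, differed by -4.54, -2.09 and -1.66. All 31 SR and hnRNP splicing factors had a negative difference, with 15 called lower and 15 below throughout (median -0.78). Srsf3 went from a median of 1685 (1295 to 2367) to 885 (791 to 1032). Hnrnpk and Hnrnpa2b1 lay below throughout but fell short of the fold bound, at -0.52 and -0.66, which library totals alone moved past it.

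All 77 tested cytosolic ribosomal protein genes had a negative difference, 48 of them called lower and 51 below throughout, with a median of -0.86. Rpsa was between 8882 and 16136 early (median 11308) and between 3343 and 4868 late (median 4573), and it fell by 1.40 on the log2 scale (SE 0.14, adjusted p = 2.2e-06). Rps4x and Rplp0 differed by -1.57 each. Many of these genes have near-identical pseudogenes, and how shared reads were counted is not given in the sources used here. With library totals alone the median of this list moved to -1.20.

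Progenitor and fetal genes were lower as a group but not throughout. Of 23 tested, 14 were called lower and 2 higher, with 9 below and 1 above throughout (median -1.22). Sox11, a transcription factor of newborn neurons and progenitors, was between 1386 and 12478 early (median 5899) and between 99.4 and 416 late (median 250), a difference of -4.52 (SE 0.24, adjusted p = 3.6e-09). The fetal genes Igf2bp1, which binds mRNA, and Hmga2, a chromatin protein, were highest at P1 (means of 367 and 210) and fell to 18.8 and 22.6 at P7 and to at most 6.35 and 2.36 in any late library. Hes5, an effector of Notch, and Mycn, a transcription factor that drives precursor growth, differed by -4.66 and -4.12. Id4 rose by 1.83 with no overlap. Vim, vimentin, did not differ (-0.19, adjusted p = 0.23), with means of 16420 and 6315 in the early phase (P1, P7) and of 4621 and 17486 in the late phase (P14, P28).

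Of 20 Notch, Shh and Wnt target genes 4 were called higher and 6 lower (median -0.62). The Notch ligand genes Dll1 and Dll3 lay below throughout, with -4.46 and -4.60, while the Hedgehog targets Gli1 and Ptch1 rose by 1.86 and 1.54, Gli1 with no overlap. Gli1 was between 88.6 and 248 early (median 151) and between 320 and 750 late (median 580).

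Markers of some other cell types moved with the phases, and the part of other cells in the results above was not tested. Among all genes compared, 13.7% were called higher and 18.5% lower, and 7.34% lay above and 8.25% below throughout. Of 12 genes of mature granule neurons 11 were called higher and 11 lay above throughout (median 4.04), and their summed level was between 1750 and 5040 in the early and between 15055 and 42957 in the late libraries. All 20 myelin genes were called higher and 13 lay above throughout (median 3.87). Mbp, myelin basic protein, was between 338 and 14961 early (median 5112) and between 67726 and 212767 late (median 97957). All late libraries were higher, by 5.37 on the log2 scale (SE 0.24, adjusted p = 7.4e-10). Of 10 genes of mature neurons 7 were called higher (sum 2823 to 8251 early, 17597 to 47028 late), and Snap25, a synaptic vesicle fusion protein, rose by 3.68.

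GABAergic progenitor genes had 13 of 14 called lower and 9 below throughout (median -4.66), with a summed level between 1412 and 16562 early and between 557 and 1209 late. Pax2, a transcription factor of young interneurons, was between 65.7 and 2154 early (median 711) and between 1.35 and 43.6 late (median 18.0). Tfap2b, a factor of the same lineage, was between 206 and 4575 early (median 1831) and between 30.7 and 146 late (median 63.8). Of 13 granule neuron precursor genes 8 were called lower, 2 higher, and 1 each lay below and above, and the sums overlapped (5809 to 21532 early, 8571 to 13138 late). Ccnd2, a cyclin of these precursors, was between 1849 and 6482 early (median 4003) and between 150 and 552 late (median 322), and Barhl2 rose by 2.74. Among 10 genes of immature neurons 6 were called lower and only Dcx, doublecortin, lay below throughout, from a median of 4385 (901 to 8423) to 305 (23.6 to 636).

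Purkinje cell genes had 5 of 11 called higher and 2 lower, 3 lay above and 2 below throughout, and their sums did not overlap (3870 to 5378 early, 6290 to 12172 late), with Pcp2 up by 4.35 and Slc1a6 and Foxp2 down by 2.74 and 2.54 on the log2 scale. Genes of oligodendrocyte precursors had 3 of 11 called higher and 2 lower, with 2 above and 1 below throughout (sum 5742 to 13662 early, 7455 to 12086 late). The list median was 0.60, and its 2 most abundant members, Tns3 and Gpr17, were called higher by 1.25 and 0.77. Tns3 lay above throughout, while Gpr17 overlapped and stood near the fold bound (lowest difference with 1 library left out 0.59). Pdgfra, the receptor that marks these precursors, went the other way and fell by 2.12 on the log2 scale with no overlap. Endothelium and pericytes had 7 of 17 higher and 2 above throughout (sum 3504 to 17890 early, 7704 to 14470 late), and of their defining genes Cldn5 and Pecam1 were not called. P1 replicate 2 and P7 replicate 2 held the highest early sums (11164 and 17890), and the other 4 early libraries, at 3504 to 6090, lay below every late one. Without either of this pair of libraries both genes were called higher (differences of up to 1.49 for Cldn5 and 1.46 for Pecam1), and Pecam1 was also called with a replicate block. Microglia genes had 2 of 14 higher and 2 lower (sum 896 to 2975 early, 2149 to 4433 late), near the shares of all genes compared (13.7% and 18.5%). Choroid plexus and ependyma had 3 of 13 higher and 2 lower with 0 separated, and their sum spread over both phases (1857 to 129522 early, 1739 to 185296 late), carried by Ttr. Meningeal fibroblast genes had 4 of 8 lower (sum 8189 to 35391 early, 4931 to 12415 late). Of 8 red blood cell genes 6, the globins, were listed at 0 in every library, and Alas2 was not called, though DESeq2, library totals alone, a pseudocount of 10 or the loss of P28 replicate 2 or 3 made it a call.

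To ask whether the phases were uniform inside, P7 was compared with P1 and P28 with P14 in the same fit. Among all genes compared 3.1% were called higher and 3.91% lower at P7, and 4.58% were called higher and 8.53% lower at P28. Of the 1135 genes above, 201 (17.7%) rose again from P14 to P28 and 46 fell, and 793 (69.9%) had no called step inside a phase. Of the 1276 genes below, 183 (14.3%) fell again by P28, 2 rose, and 1052 (82.4%) had no step called. The step between P7 and P14 was the largest of the 3 in 988 (87%) of the genes above and 1051 (82.4%) of those below, against 41.2% of all genes compared, an excess that the choice of genes by phase favors. The step between P14 and P28 was the largest in 99 and 189, and that between P1 and P7 in 48 and 36.

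Inside the late phase the means mostly ran with the difference between the phases, and inside the early phase they ran both ways. From P1 to P7, 96 (8.46%) of the genes above were called higher and 76 (6.7%) lower. Of the genes below, 22 (1.72%) were called higher and 29 (2.27%) lower, against 3.1% and 3.91% of all genes compared. In 491 (43.3%) of the genes above, the mean was lower at P7 than at P1 and higher at P28 than at P14, against 24.7% of all genes compared. In 638 (50%) of the genes below it was higher at P7 and lower at P28, against 33%. These shares join the early and the late step, so they do not show the early step alone. Slc1a3, for example, had means of 16707, 10471, 59641 and 121507 from the youngest to the oldest age, and Aldoc of 9485, 2039, 20076 and 56146. The summed level of the glutamate genes was between 54925 and 63566 at P1, between 24420 and 39649 at P7, between 119252 and 146722 at P14 and between 253267 and 289330 at P28. Of these 10 genes 5 were called lower at P7 and 6 higher at P28, and of the 16 ion homeostasis genes 6 and 11. Mki67 had the mirror order, with means of 6704, 11544, 394 and 19.7.

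Bergmann glia genes showed how far apart the ages of a phase could be. Their sum was between 73418 and 96221 at P1, between 17336 and 36758 at P7, between 48320 and 63770 at P14 and between 109005 and 131532 at P28, so that the sum overlapped between the phases although 9 of 11 members were called higher. Myelin genes had another order. Their sum was between 2859 and 3885 at P1, 28334 and 41308 at P7, 399796 and 437172 at P14 and 123736 and 179924 at P28, and 17 of 20 were called higher at P7 and 16 lower at P28. Mature granule neuron genes also had their highest sum at P14 (22076 to 42957, against 15055 to 17435 at P28).

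**Figure D5:**
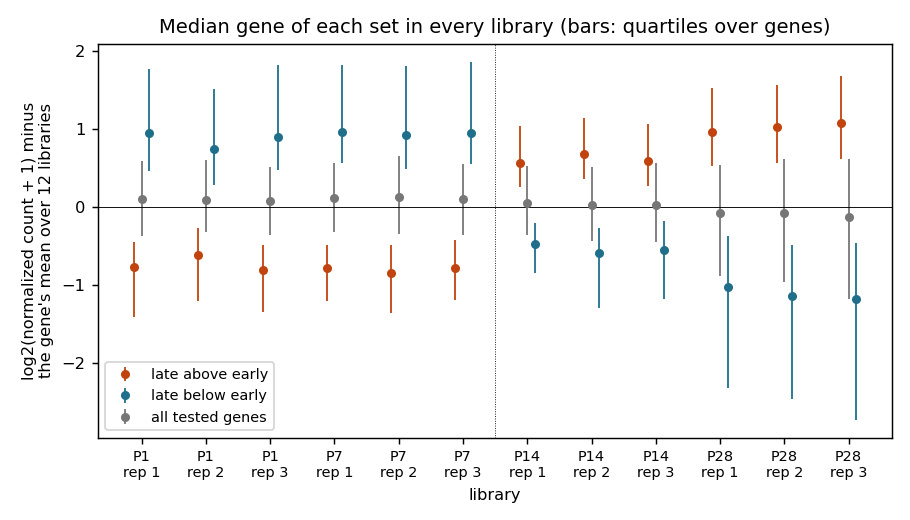
Median over genes of log2(normalized count + 1) minus the mean of the gene over the 12 libraries (y axis), for the genes above (red), the genes below (blue) and all genes compared (gray), in each library (x axis), with bars from the lower to the upper quartile of genes. The 3 P28 libraries lie farther out (medians 0.97 to 1.08 and -1.02 to -1.18) than the 3 P14 libraries (0.57 to 0.68 and -0.48 to -0.59), and P1 replicate 2 lies nearest to 0 among the early libraries.

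Separation rests on the single most deviant library of each phase. For 591 genes P1 replicate 2 was the only library that kept the phases from separating, 236 that would lie above and 355 that would lie below, against 86 to 448 for each of the other libraries. Without it 1371 genes lay above and 1631 below, and 2149 were called higher and 2633 lower. That library held the lowest early sum of mitosis genes (18036, against 28894 to 50280 in the other 5) and of GABAergic progenitor genes (1412, against 3661 to 16562), and the highest of meningeal fibroblast genes (35391, against 8189 to 21944). The part of this makeup in its position was not tested.

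Scaling moved the balance of the comparison. With library totals alone in place of the authors' size factors, the median difference over all genes went from -0.19 to -0.53, and of all calls the share that was higher late went from 42.6% to 22.7%. The list medians above kept their sign apart from that of cholesterol synthesis. With at least 10 reads required in every library, which removes genes that fell to near 0, 58.4% of the called genes were higher.

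Other features of the separated genes were described without a test, beside all genes compared, which include them. Their span on the genome had a median of 28489 bases in the upper set, 23654 in the lower set and 23764 over all genes compared. Long noncoding RNAs made up 1.86% of the upper and 2.6% of the lower set against 4.55%, and genes of the X chromosome 3.45% and 5.43% against 3.58%. The part of the unequal balance of sex in the X shares was not tested. The median of the mean level was 644 in the upper and 245 in the lower set against 205, in normalized counts that are not divided by gene length. In all, 135 genes above and 177 below were in any of the lists. The share of all list genes that this makes was not counted, so it cannot be set against the 7.34% and 8.25% of all genes compared.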

How the data were processed

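RNA of GFP-sorted cerebellar cells was measured in 12 libraries, 3 at each of 4 time points. The authors aligned reads to mm10 with STAR (version 2.5.0a), counted them on UCSC transcripts and divided the counts by DESeq2 (version 1.30.1) size factors, versions being those of the submitters' processing notes. The deposited values are therefore a signal, namely counts that each library's size factor has rescaled. Strand use and the handling of shared reads are not given in the sources used here. Each value divided by the smallest step of its library gave whole reads (100% within 0.01), which served for depth, floors and count tests.

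Genes that reached 10 in 3 libraries or more were tested on log2(value + 1) with limma (version 3.58.1, under R 4.3.3), 1 mean per time point and a variance trend, as the contrast of the mean of P14 and P28 with the mean of P1 and P7. P-values were Benjamini-Hochberg adjusted over 15464 genes. edgeR (version 4.0.16, quasi-likelihood, TMM) and DESeq2 (version 1.42.0) on the recovered reads were alternatives, with other scalings, pseudocounts of 0.1 and 10, other filters, a fit of 2 phases without time points, a replicate block and each library left out. In simulated counts with 200 changed genes limma called 174 of them and 1 unchanged gene. The changed genes were abundant, moved by the same fold, as many up as down, and had no step inside a phase. The simulation therefore does not give the rate of false calls in the real data.

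Named genes were, per direction, the 10 with the largest difference and the 5 with the widest gap among called, separated genes with a mean of at least 50 in the higher phase, the 2 most abundant of each list, Aldh1l1, Gfap and the genes nearest the boundary. Members and lists were chosen with earlier results of these data known. Of 24421 entries 23204 matched a RefSeq gene table by symbol, 1082 by an older symbol and 135 not, and 27 symbols had become dates. Between libraries of different time points, correlations of deviations ran from -0.03 to 0.14 for the same number (median 0.03). For other numbers they ran from -0.10 to 0.05 (median -0.01). The highest was that of P1 replicate 2 with P7 replicate 2. The labels state no pairing, so the numbers were not taken as pairs. For genes with several starts, the first in the RefSeq table was searched. Results of some single genes are left out.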

Additional observations from a re-analysis of the deposited data

Results flagged for a closer look

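In 13 of 199 groups of 6 libraries of the named genes, 1 library lay farther from its nearest neighbor than Dixon's 95% critical value for a group of 6 allows. Chance gives about 1 in 20 such groups, and each group mixes the ages of a phase. P1 replicate 2 was that library in 7 of them. It was low for Kif2c (97.2, against 250 to 336 in the other 5 early libraries), Prdm13 (2.14, against 125 to 519), Atoh1 (0, against 15.9 to 45.0) and Mcm4 (649, against 869 to 1003). It was high for Mcidas (126, against 26.2 to 46.2), Fdft1 (2591, against 1565 to 1873) and Igf2 (36858, against 8878 to 14193). Csf1r was low in P1 replicate 3, at 259 against 595 to 839.

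In the late phase Cbln3 was 6357 in P14 replicate 3, against 2622 to 3641 in the other 5 libraries, and Kif2c was 19.04 in P14 replicate 2, against 0 to 1.09. Zic1 was 4107 in P14 replicate 1, against 5056 to 5716. In P28 replicate 1 Prdm13 was 1.46, which is 1 read, against 0 in the others, and Alas2 was 2.92, against 20.1 to 44.5.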

How the results depend on the processing

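The counts of genes higher and lower late (2121 and 2861) and of genes above and below throughout (1135 and 1276) stayed within 1.5 times of these values in 74 of 80 cases. Library totals alone gave 1367 higher, 4644 lower, 684 above and 2217 below. A minimum of 10 reads per library left 1400 lower and 739 below, as fewer genes were tested. Other settings gave, for higher and lower, 2389 and 2345 (edgeR), 2447 and 2624 (DESeq2), 2210 and 2762 (TMM scaling), 2103 and 3360 (no filter), 2092 and 2814 (pseudocount 0.1), 2144 and 2754 (pseudocount 10), 1850 and 2310 (2 phases without time points), 2310 and 3389 (unadjusted p) and 2709 and 3532 (no fold bound). Leaving out each library gave 1943 to 2304 higher and 2459 to 3218 lower. The replicate block gave 2120 higher and 2861 lower, the numbers pairing nothing in the labels. Counts of steps inside a phase moved by over 1.5 times in 19 of 92 cases. Without P7 replicate 3, for example, 272 genes in place of 480 were higher at P7.

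Of the named genes, differences near 0 changed sign. With library totals alone Ptprz1 became -0.16, Psat1 -0.10, Thra -0.33, Fdft1 -0.041, Gli3 -0.27, Zic1 -0.065 and Vtn -0.28. With 1 library left out Thra ranged from -0.094 to 0.232, Gli3 from -0.104 to 0.176, Vtn from -0.182 to 0.332 and C1qa from -0.843 to 0.623. Vtn was -0.012 with edgeR and -0.045 with DESeq2, and C1qa, -0.15 in the test used, was 0.67, 0.637 and 0.089 with edgeR, DESeq2 and a pseudocount of 10. The cause was not tested. Values of under 3 reads per library limit what can be said of genes near 0 late.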

Other observations

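Imprinted growth regulators were lower late in 7 of 13 tested members, 0 were higher, and 3 lay below throughout (median log2 difference -1.04). H19, a noncoding RNA of the Igf2 locus, was between 98.7 and 4320 early (median 636) and between 2.36 and 59.7 late (median 12.2), a difference of -5.54 (SE 0.48, adjusted p = 5.4e-07). Its mean was 2297 at P1 and 231 at P7. Mest and Grb10, of the imprinted network of growth genes, differed by -3.24 and -2.62 with no overlap. Igf2 and Meg3 were not called (-0.52, adjusted p = 0.11, and -0.45, adjusted p = 0.13), and both overlapped between the phases. Library totals alone made both a call.

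Collagens had 22 of 43 tested genes called lower, 4 higher, 7 below and 1 above throughout (median -1.15). Col3a1, a collagen of fibrous tissue, was between 2051 and 8633 early (median 3133) and between 363 and 1755 late (median 951). Col6a3 differed by -4.83 and Col9a3 rose by 2.29, both with no overlap. Meningeal fibroblast markers share Col1a1, Col1a2 and Col3a1 with this list and moved the same way, and the part of such cells was not tested. Inside the late phase 15 collagens were called lower at P28 than at P14. Immediate early genes, which respond to stimulation and to tissue dissociation, had 3 of 10 called lower, 0 higher and 0 separated. Egr1 differed by -1.64 (SE 0.18, adjusted p = 7e-06) and missed separation narrowly, with 13204 in the lowest early and 13221 in the highest late library.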
